A study of Mus musculus with 10 samples.

Results

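The genes described here are 9 synaptotagmins, SNAREs and Apba adaptor proteins: Syt12, Syt1, Syt4, Syt11, Snap23, Snap25, Apba1, Apba2 and Apba3. They were followed in mouse oocytes of the germinal vesicle stage, which are full-sized and rest in the first meiotic prophase. All 9 were on the array, with 22 probe sets that carried 1 gene symbol each, out of 18193 genes and 45101 probe sets in all. The study compared 5 arrays of wild-type oocytes with 5 arrays of CTCF-depleted oocytes. CTCF is a DNA-binding protein of insulators and chromosome loop anchors. The labels gave neither the means of depletion nor the strain, the age of the mice or the number of oocytes per sample. They also did not say whether samples came from separate animals, so p-values cover only sample-to-sample spread, some or all of which could be technical.

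The set was chosen by the response of Syt12 and Apba2 to CTCF depletion, and relatives of their protein families were added. The difference between depleted and wild-type oocytes is therefore given as a description for all 9 genes, with no test. Tests are given for other genes of the pathway and for the chromosomal neighbours of Syt12 and Apba2. The pathway lists were written by protein family but with earlier results of these data known, and their p-values do not allow for that. Signals are the deposited MAS5 values, in linear units and scaled to the same trimmed mean on every array. Each array's background level was the highest of its 27 probe sets for Bacillus control genes, which have no mouse counterpart, and this level ran from 4.75 to 10.9 over the 10 arrays.

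Regulated exocytosis is the fusion of a stored vesicle with the plasma membrane. A vesicle SNARE such as a Vamp protein zips together with target SNAREs of the syntaxin and Snap23 or Snap25 type, and calcium-binding synaptotagmins trigger or tune the fusion. The oocyte uses this machinery to release cortical granules at fertilisation, whose contents harden the zona pellucida against further sperm. Apba proteins, also called Mint or X11, are adaptors that bind the amyloid precursor protein.

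Promoter sequence was examined because CTCF binds a long DNA motif and its depletion is the treatment compared here. RefSeq windows of assembly GRCm38.p6, from 250 bases before to 50 after an annotated start, were at hand for 6 of the 9 genes: Syt1, Syt11, Snap23, Apba1, Apba2 and Apba3. They were searched on both strands for CCNNNAGNNGGC, a loose form of the CTCF motif in which N is any base. Of the 8 windows of these genes, 1 held a match, and 8.61% of all 32851 windows held at least 1. That window belongs to Apba2, and the match began 91 bases before the start that defines it. The 30 bases around it lie at chr7:64501606-64501635 on the plus strand, past the first annotated base of the gene at 64501560 but upstream of this start. The other Apba2 window held no match. G and C made up 68.7% of the window with the match and 71.7% of the other, against a median of 52.7% over all windows. The fixed letters of the motif are mostly G and C, and the share over all windows was not matched for this content. Among the 23 pathway genes that passed the test further on, 18 had a window and 5 of these held a match, named here after the search: Gosr1, Stx6, Stx16, Nsf and Kif17. Of the chromosomal neighbours of Syt12 and Apba2, 15 had a window and 2 held a match, Ssh3 and Fam189a1. Of all 27025 genes with a window, 9.84% held a match. Gosr1 is shown for comparison because it was the most clearly lower SNARE gene of the lists, and its match, at chr11:76763666-76763695 on the minus strand, began 108 bases before its start. Capitals mark the match in each, and a match describes letters, not a bound site.

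Apba2 promoter site: ctccggagcCCGCCAGGGGGCagcgcggcg

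Gosr1 promoter site: acgaattgtCCACCAGGTGGCagtgtctaa

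Across the arrays the sample identity was checked first. Both Ctcf probe sets were lower on every depleted array, at 2.71% and 3.62% of the wild-type mean, and the residual signal was highest in depleted replicate 5, at 61.1 and 95.8 against at most 14.2 and 29.3 on the other depleted arrays. All 14 oocyte markers, among them the zona pellucida genes Zp1, Zp2 and Zp3, were above background on all 10 arrays. Of the markers of granulosa and cumulus cells 12 of 18 were above background on all wild-type arrays and 14 on all depleted arrays, and 1, Tnfaip6, was above it on none. Their summed signal was 2923 on wild-type replicate 2, 1136 to 1268 on the other wild-type arrays and 1119 to 1507 on the depleted arrays. Fshr, the receptor of follicle-stimulating hormone, and Nr5a2 passed the test as higher in depleted oocytes (log2 fold changes of 1.01 and 0.31; limma, adjusted p = 0.00107 and 0.00637). Most other tested markers of this list had negative log2 fold changes and none was called lower. Among them were Gja1 at -0.72 and Kitl at -0.45, the latter with every depleted array below every wild-type array. Amh, Cyp11a1 and Star were positive, at 0.17, 0.10 and 0.11, and not called. Neurons are rich in exocytosis genes. Of their markers, 5 of 12 were above background on all wild-type arrays and 4, among them Nefl and Stmn2, on none. Their summed signals were 1858 to 2169 in wild-type and 2241 to 2400 in depleted oocytes, and Nefh and Elavl3 passed the test as higher. Tubb3 and Elavl3 made up most of the sums, with means of 1052 and 698 in wild-type and 1120 and 952 in depleted oocytes. Of the tested markers not called, Map2 had a log2 fold change of -0.29 and Tubb3, Rbfox3, Syp and Elavl4 had 0.03 to 0.15. Of the blood and immune markers 2 of 8 were above background on all wild-type arrays and 1, Ptprc, on none, with sums of 73.7 to 124 and 75.3 to 106. The part of these cells in the results was not tested, and the counts of calls are also given without wild-type replicate 2.

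Apba2 and Syt12 had the strongest differences of the 9 genes, and each has a single probe set. Apba2 signal was 38.5, 42.4, 43.3, 44.6 and 45.4 on the wild-type arrays and 1.26, 0.879, 1.33, 7.41 and 4.25 on the depleted arrays. The groups did not overlap, and all wild-type arrays were above background while only depleted replicate 4 was. The mean was 42.8 ± 2.69 in wild-type and 3.02 ± 2.80 in depleted oocytes (SD, n = 5 each), 7.06% of wild type. On the log2 scale with an offset of 2.47 the fold change was -3.17 ± 0.27 (SE). Because the depleted signals lay near or under background, the size depended on the offset and was -3.70 with an offset of 1 and -1.64 with an offset of 16. Without wild-type replicate 2 it was -3.18.

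Syt12, a synaptotagmin whose C2 domains are not known to sense calcium, read 21.4, 28.6, 30.5, 35.1 and 28.1 on the wild-type arrays. Its depleted values were 4.96, 11.0, 4.35, 7.01 and 1.45. Every depleted array was below every wild-type array, and depleted replicates 2 and 4 were above background. The mean was 28.7 ± 4.94 in wild-type and 5.76 ± 3.54 in depleted oocytes (SD, n = 5 each), 20.0% of wild type. The log2 fold change was -2.02 ± 0.27 (SE), -2.30 with an offset of 1 and -1.05 with an offset of 16, and -2.02 without wild-type replicate 2. The array with the most residual Ctcf signal, depleted replicate 5, held the lowest Syt12 value and the second highest Apba2 value of the depleted group. Where a sample holds more than 1 oocyte, its RNA cannot tell fewer cells with a transcript from less transcript per cell.

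**Figure D1:**
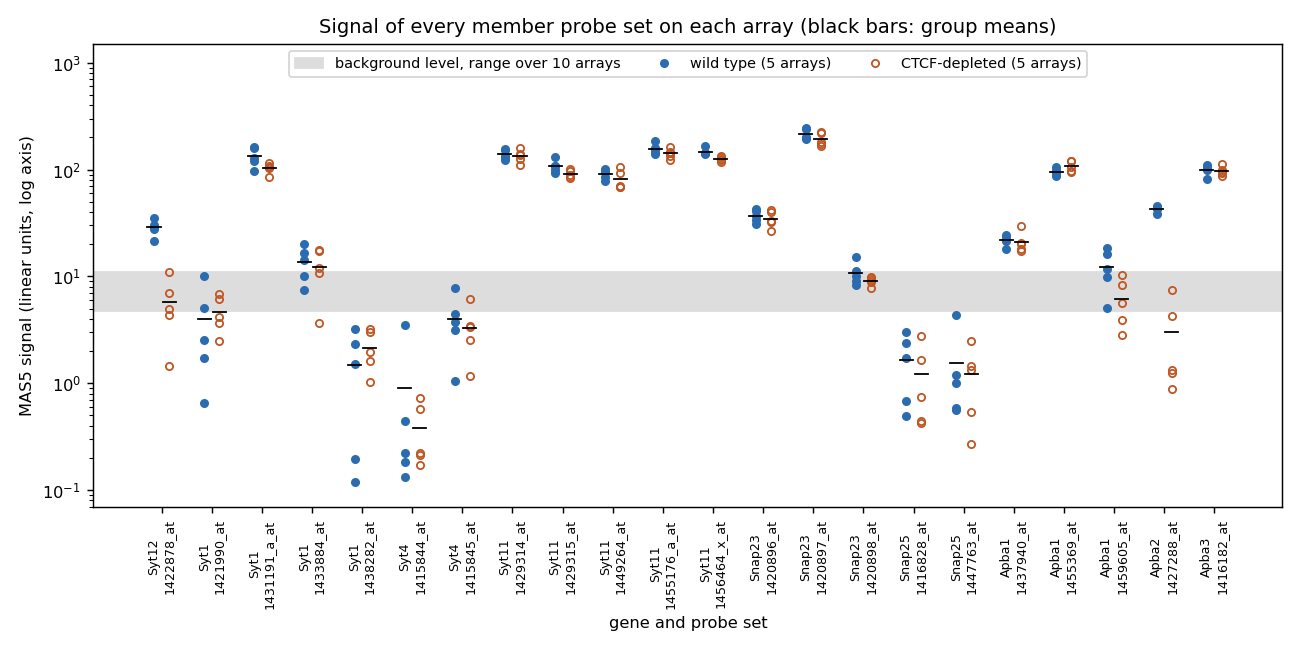
Signal of all 22 probe sets of the 9 genes on each array, in linear MAS5 units on a log axis, with wild-type arrays as filled and CTCF-depleted arrays as open points, group means as black bars and the range of the background level over the 10 arrays in grey. The wild-type arrays of Apba2 and Syt12 lie above the grey band and their depleted arrays at its upper edge, in it or under it, whereas Syt4 and Snap25 lie under the band or within it in both groups.

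The relatives of Syt12 and Apba2 differed less or were not measurable. Of the 22 probe sets, 16 passed the filter on low values and 6 did not. In the fit across all probe sets 2 of the 16, those of Syt12 and Apba2, were called lower and 0 higher, against 12.6% of all 27022 tested probe sets called in either direction, and 3 were called without wild-type replicate 2 and without wild-type replicate 5. Syt12 and Apba2 have 1 probe set each, so in those runs at least 1 probe set of a relative was called. Because Syt12 and Apba2 were chosen by their response, no inference is drawn from the count. The 2 members lie far from the other 14 probe sets, whose log2 fold changes ran from -0.76 to 0.17.

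Among the synaptotagmins, Syt1, the calcium sensor of fast transmitter release, was above background on all arrays with 1 of its 4 probe sets. This probe set, 1431191_a_at, gave 127, 97.1, 120, 161 and 160.0 in wild-type and 103, 115, 85.0, 106 and 107 in depleted oocytes. The groups overlapped, with wild-type replicate 2 lower than 4 of the depleted arrays, and the log2 fold change was -0.34 ± 0.13 (SE). A dimmer Syt1 probe set, 1433884_at, was above background on 4 arrays of each group and differed by -0.19 ± 0.31. The other 2 were above background on no array and were not tested.

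Syt11, which resembles Syt4 in lacking a calcium-binding residue of other synaptotagmins, was above background on all 10 arrays with all 5 of its probe sets. Its wild-type means ran from 91.0 to 157 and its depleted means from 81.7 to 142. The 5 log2 fold changes were all negative but small, from -0.24 to -0.05, and the smallest of them turned to 0.0014 when arrays were centred on their medians. On 1 probe set, 1456464_x_at, the depleted values of 117 to 135 all lay below the wild-type values of 141 to 165, with a log2 fold change of -0.21 ± 0.08 (SE). The groups of the other 4 overlapped, and 6.38% of all tested probe sets had every depleted array below every wild-type array. Syt4 was above background on no array with either of its probe sets, whose highest signals were 7.72 in wild-type and 6.10 in depleted oocytes.

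Of the SNAREs of the Snap25 type, the widely expressed Snap23 was well measured and its neuronal relative Snap25 was not above background. Snap23 probe set 1420897_at gave 241, 195, 197, 245 and 200.1 in wild-type and 175, 167, 181, 226 and 219 in depleted oocytes. The groups overlapped, and the log2 fold change was -0.16 ± 0.10 (SE). The dimmer Snap23 probe sets differed by -0.09 ± 0.15 and -0.18 ± 0.21. Both Snap25 probe sets were under background on all arrays, with highest signals of 4.40 in wild-type and 2.79 in depleted oocytes, so no difference could be measured.

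The Apba relatives of Apba2 differed little where they were bright. Apba3, the most widely expressed member of the family, gave 110, 106, 98.9, 104 and 81.1 in wild-type and 94.2, 100.3, 113, 87.4 and 93.3 in depleted oocytes, a log2 fold change of -0.03 ± 0.10 (SE). Its values overlapped throughout, and centring on the median turned the sign, to 0.017. Apba1, an adaptor that joins Cask and Lin7 proteins in a complex, gave 94.7 ± 7.30 in wild-type and 107 ± 11.8 in depleted oocytes on its brightest probe set (SD, n = 5), a difference of 0.17 ± 0.10. On a second probe set, 1437940_at, it differed by -0.06 ± 0.17, and on the dimmest, 1459605_at, by -0.76 ± 0.32, where 3 wild-type arrays and 1 depleted array were above background. The 3 Apba1 probe sets thus did not share a direction.

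**Figure D2:**
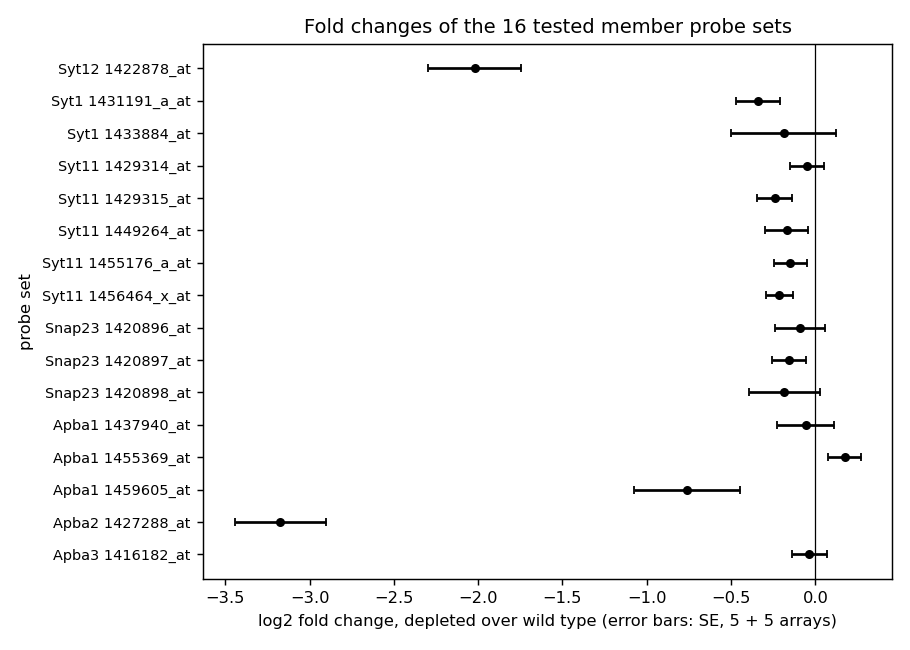
Log2 fold changes, depleted over wild type, of the 16 probe sets that passed the filter on low values, with standard errors from the fit across all probe sets (5 arrays per group). Apba2 at -3.17 and Syt12 at -2.02 stand apart, and the next lowest, an Apba1 probe set near background, is at -0.76.

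The synaptotagmins and C2-domain proteins outside the chosen set contained 1 further strong difference, in Syt7. Syt7, a high-affinity calcium sensor of lysosome and slow granule exocytosis, gave 371, 379, 385, 364 and 391 on the wild-type arrays and 103, 84.7, 90.4, 109 and 88.7 on the depleted arrays with its brightest probe set. No array overlapped, and all 10 were far above background. It fell 3.92-fold, with a log2 difference of -1.97 ± 0.08 (SE; limma, adjusted p = 1.5e-10), with all 5 depleted arrays lower. Its other probe sets gave -2.05 ± 0.15 and -1.16 ± 0.15, both also called lower, and -0.36 ± 0.22 on the dimmest, which was not called. With each array left out in turn the brightest probe set gave -2.02 to -1.93.

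**Figure D3:**
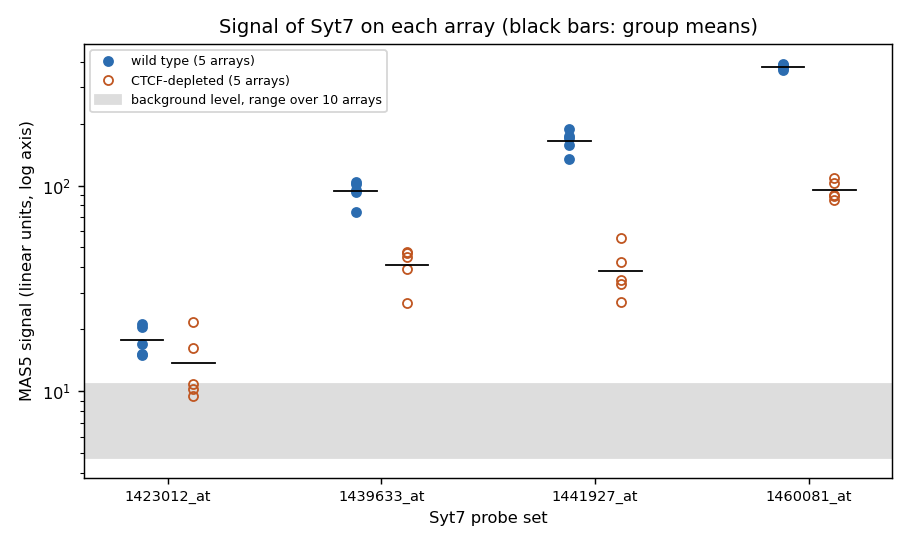
Signal of the 4 Syt7 probe sets on each array, in linear MAS5 units on a log axis, with wild-type arrays filled, CTCF-depleted arrays open, group means as black bars and the range of the background level in grey. On 1460081_at the depleted arrays lie between 84.7 and 109 and the wild-type arrays between 364 and 391, and the groups overlap only on 1423012_at.

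Of the 20 tested genes of that list, 1 was lower and 0 were higher in limma with Benjamini-Hochberg adjustment, and at an unadjusted p under 0.05 the counts were 4 and 4. Without wild-type replicate 2 the calls were again 1 and 0. Over all 13811 genes tested, 16.4% were called, 7.26% higher and 9.12% lower, and the median log2 fold change was -0.017. The list's median was -0.087. The most abundant other members by signal were Sytl4, a Rab27 effector on secretory granules, with -0.12 ± 0.05 (SE), the Rab3 effector Rph3a with -0.11 ± 0.05 and the membrane tether Esyt1 with 0.14 ± 0.06, none of them called (limma, adjusted p = 0.114, 0.149 and 0.194).

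Of 23 syntaxins and other target SNAREs tested, 5 were lower and 2 higher, or 30.4% against the 16.4% of all genes, and without wild-type replicate 2 these counts were 4 and 2. The median log2 fold change of this list was -0.060. Gosr1, a SNARE of the Golgi apparatus whose promoter match is printed above, gave 166, 175, 148, 166 and 169 in wild-type and 94.0, 98.8, 104, 95.9 and 86.0 in depleted oocytes. The groups did not overlap, and it fell 1.70-fold (limma, adjusted p = 9.28e-06), with -0.50 on its other probe set, also called. Stx7 of late endosomes fell 1.27-fold, Stx6 of the trans-Golgi network 1.27-fold and Stx12 of recycling endosomes 1.22-fold (limma, adjusted p = 0.00242, 0.00454 and 0.00363). The remaining call, Stx16, also of the trans-Golgi network and named after its values were seen, fell 1.48-fold (limma, adjusted p = 0.0345). Use1, which serves traffic into the endoplasmic reticulum, rose 1.45-fold and Vti1a, of endosome to Golgi traffic, 1.42-fold (limma, adjusted p = 9.23e-05 and 0.000364). All probe sets of these genes that were tested had the same sign as the brightest.

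The syntaxins of the plasma membrane, picked out after their values were seen, were not called. Stx2 had a log2 fold change of -0.11 ± 0.065 (SE), Stx3 of 0.26 ± 0.11 and Stx4a of 0.15 ± 0.09. Stx1a had -0.14 ± 0.11 on its brighter probe set and 0.12 ± 0.16 on the other. The brightest members by signal, Stx5a, Snap47 and Vti1b, had -0.06 ± 0.06, -0.06 ± 0.04 and -0.04 ± 0.04 and were also not called.

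Of 11 vesicle SNAREs tested, 2 were higher and 1 lower, or 27.3% against the 16.4% of all genes. The list median was 0.043, and without wild-type replicate 2 the counts were 1 and 1. Vamp3, a SNARE of recycling endosomes, gave 662, 709, 843, 678 and 723 in wild-type and 1287, 1056, 1163, 980.3 and 883 in depleted oocytes, and rose 1.48-fold (limma, adjusted p = 0.00042). Its probe sets disagreed: a second gave 0.58 and the other 3 gave -0.09, -0.17 and -0.01, and the mean over them was not called. Vamp8, of late endosomes and secretory granules, fell 1.24-fold and Sec22c, of early secretory traffic, rose 1.16-fold (limma, adjusted p = 0.016 and 0.0452). Sec22c was not called without any 1 of 8 of the 10 arrays, at adjusted p up to 0.105. Its dimmer probe set gave 0.43 and was also called higher (limma, adjusted p = 0.00955). Sec22a, the brightest of the list by signal, had 0.04 ± 0.05 (SE) and was not called.

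Among the regulators that prepare or restart SNARE fusion, 6 of 36 were lower and 1 higher, or 19.4% against the 16.4% of all genes. The counts were 5 and 1 without wild-type replicate 2, and the list median was -0.034. Rims1, a scaffold that docks Rab3 vesicles, gave 485, 429, 495, 473 and 467 in wild-type and 358, 309, 305, 294 and 377 in depleted oocytes. The groups did not overlap, it fell 1.43-fold (limma, adjusted p = 0.000195), and its other probe set gave -0.70 ± 0.13 (SE). Its relative Rims2 fell 1.57-fold at a dimmer signal of 56.2 in wild-type oocytes (limma, adjusted p = 0.00607), and its other 3 probe sets were not called. Rims2 was also not called without wild-type replicate 3 (limma, adjusted p = 0.0708). The brightest probe set was picked anew in that run, so this value need not belong to the probe set that fell 1.57-fold. Baiap3, a Munc13-related protein, rose 1.28-fold.

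The other called regulators were close to the threshold. Stxbp4, a syntaxin 4 partner, fell by 0.42 on the log2 scale, the complexin Cplx1 by 0.50, the priming factor Unc13c by 0.15 and Nsf, the ATPase that takes spent SNARE complexes apart, by 0.14 (limma, adjusted p = 0.026, 0.0328, 0.0348 and 0.0415). Each of these 4 lost its call without at least 5 of the 10 arrays taken out in turn, and with median centring Unc13c and Nsf gave -0.10 and -0.09 and were not called. The count of lower regulators was 2 without wild-type replicate 3 or 5 or depleted replicate 4 or 5, and 3 without wild-type replicate 4. Without depleted replicate 5, 3 were higher, and without wild-type replicate 4, 2. Rab3d, a GTPase of secretory granules and the third brightest by signal, had -0.14 ± 0.05 (SE) and was not called.

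The exocyst, which tethers vesicles to the plasma membrane, had 1 lower and 0 higher genes of 10 tested in limma with Benjamini-Hochberg adjustment. That is 10% against the 16.4% of all genes. At an unadjusted p under 0.05 the counts were 1 and 1, and the list median was 0.056. Without any 1 of wild-type replicates 2 and 3 and depleted replicate 5, 1 gene was called higher. Exoc4 fell 1.27-fold on its brightest probe set (adjusted p = 0.00288), with -0.21, -0.19, 0.05 and 0.31 on the others, and the mean over its probe sets was not called. Exoc3, Exoc1 and Rala, the brightest by signal, had 0.08, 0.04 and 0.09 and were not called. Exoc6 was not called on its brightest probe set, at 0.02. Its other probe sets gave 0.37 and 0.30, both called higher (limma, adjusted p = 0.0113 and 0.0388).

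The partners of the Apba adaptors gave 3 lower and 1 higher of 17 tested, or 23.5% against the 16.4% of all genes. The list median was -0.10, and without wild-type replicate 2 the counts were 2 and 1. Cask, the scaffold that Apba1 binds, gave 228, 200.3, 315, 204 and 221 in wild-type and 175, 127, 162, 156 and 195 in depleted oocytes and fell 1.42-fold (limma, adjusted p = 0.0125). Its other probe sets gave -0.22 and -0.49 and were not called. Bace1, the beta-secretase that cuts the amyloid precursor protein, fell 1.53-fold from a dim 27.4, and Psen2, of the gamma-secretase, 1.16-fold (limma, adjusted p = 0.032 and 0.0368). Bace1 lost its call without any 1 of 5 arrays and Psen2 without any 1 of 6, and without wild-type replicate 1 or depleted replicate 3 or 5 only 1 partner was lower. Kif17, a kinesin that carries cargo through Apba1, rose 1.13-fold (limma, adjusted p = 0.0164), with -0.03 and 0.12 on its other probe sets. Aplp2, the brightest relative of the amyloid precursor protein by signal, had -0.10 ± 0.07 (SE) and was not called. Apbb2 was not called on its brightest probe set, at -0.16. Its other probe sets were called in opposite directions, -0.67 and 0.41 (limma, adjusted p = 0.00168 and 0.0413).

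Over the 6 lists together 17 genes were lower and 6 higher of 117 tested, or 19.7%, against 16.4% of all genes, with a median log2 fold change of -0.039 against -0.017. The share is near the background. Of the 23 called genes 19 had no overlap between the groups, or 82.6%, against 74.8% of all 2263 called genes. Without wild-type replicate 2, 14 were lower and 6 higher, without wild-type replicate 3, 11 and 7, and without depleted replicate 5, 10 and 8. With arrays centred on their medians, 14 were lower and 12 higher in the lists, and 921 and 1374 over all genes, against 1260 and 1003 without centring.

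**Figure D4:**
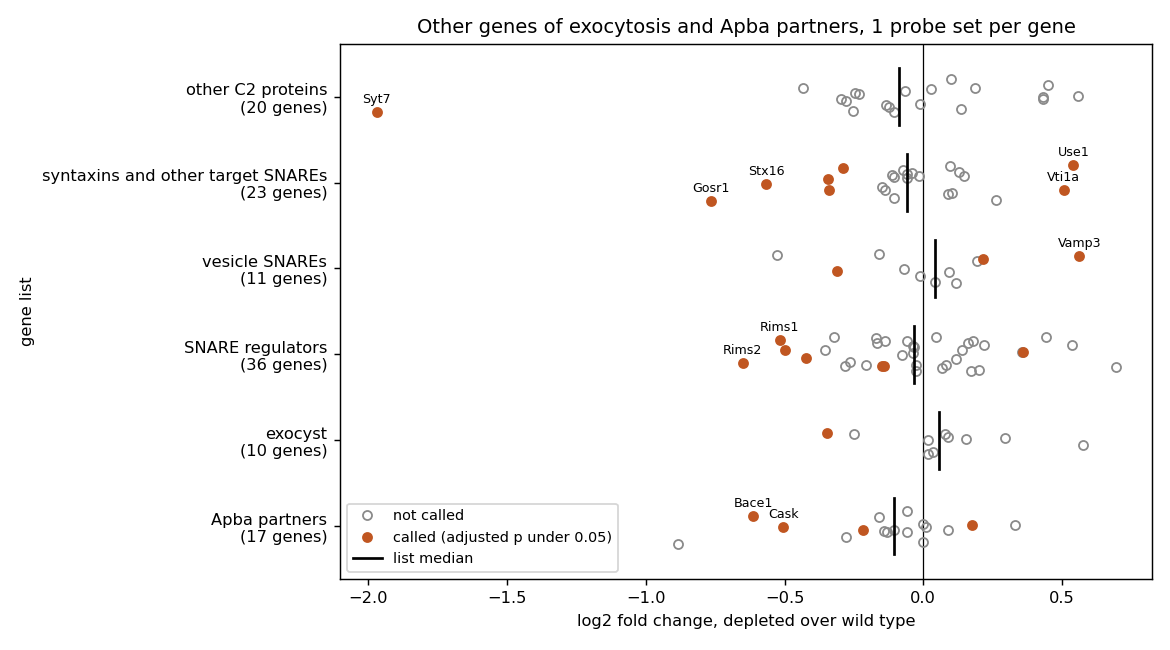
Log2 fold changes, depleted over wild type, of the 117 tested genes of the 6 lists, 1 probe set per gene, with called genes filled, others open, list medians as vertical bars and called genes past 0.5 in size named. Syt7 at -1.97 lies apart from all others, and the list medians lie between -0.10 and 0.056.

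The genes next to Syt12 and Apba2 were compared to show whether neighbouring genes differed too, taking the 4 nearest protein-coding genes with a probe set on each side. Of the 16 neighbours 15 were tested, and 3 were lower and 1 higher in depleted oocytes, against 9.12% and 7.26% of all genes, with the same counts without wild-type replicate 2. Neither the nearest measured neighbours of Syt12, Kdm2a and 2010003K11Rik, nor the pyruvate carboxylase gene Pcx were called, at -0.05 ± 0.10, -0.24 ± 0.39 and 0.08 ± 0.13 (SE). Ankrd13d, the next gene beyond Kdm2a, gave 40.8, 44.9, 34.1, 38.7 and 34.5 in wild-type and 20.7, 24.5, 32.4, 22.9 and 16.5 in depleted oocytes. It fell 1.61-fold with no overlap between groups (limma, adjusted p = 0.00951), and its other probe set gave -0.83 ± 0.20.

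Beside Apba2, both nearest measured genes were called, in opposite directions. Mcee, an enzyme of propionate breakdown, fell 1.22-fold from 326 ± 15.5 to 267 ± 20.6 (SD, n = 5; limma, adjusted p = 0.0103), a change that was not called after median centring (adjusted p = 0.0536). Fam189a1 gave 43.0, 32.2, 35.8, 39.7 and 26.4 in wild-type and 52.4, 52.3, 71.4, 58.8 and 60.1 in depleted oocytes on its brighter probe set, a rise of 1.63-fold with no overlap (limma, adjusted p = 0.00267). Its dimmer probe set gave the opposite direction, -0.60 ± 0.13 (SE; adjusted p = 0.00652), and the mean over both was not called, so Fam189a1 has no settled direction. Tarsl2, a threonyl-tRNA synthetase relative farther out beyond Tjp1, fell 2.04-fold, from 35.0 ± 5.86 to 16.4 ± 6.23 (SD, n = 5; limma, adjusted p = 0.00183). Nsmce3, which lies within the bounds of Fam189a1, and Tjp1 had -0.06 ± 0.10 and -0.06 ± 0.05 and were not called.

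**Figure D5:**
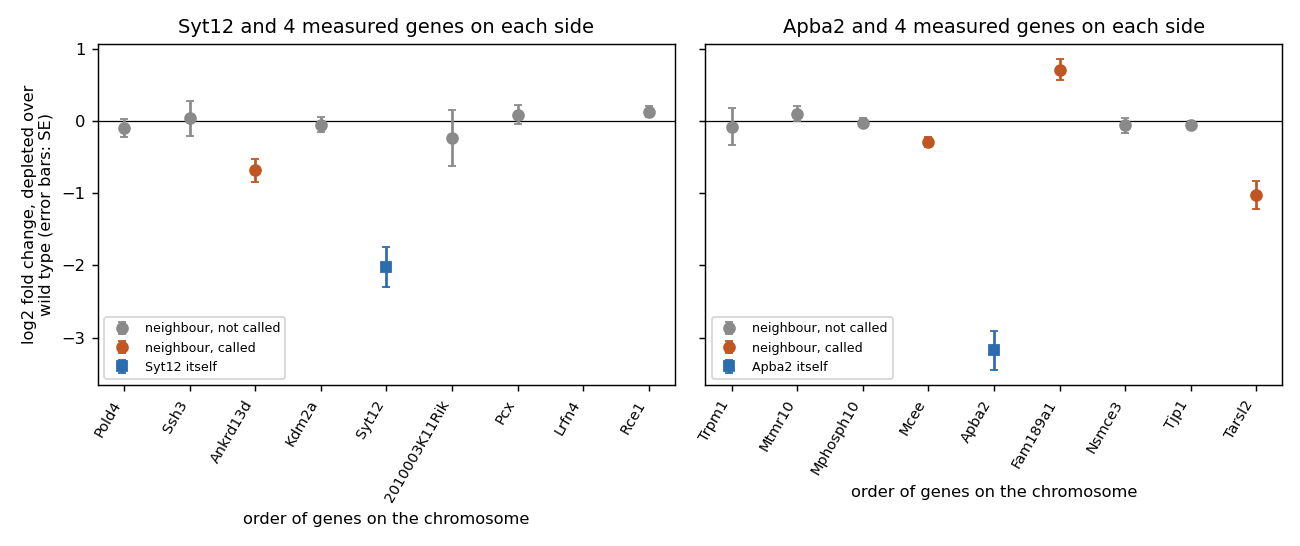
Log2 fold changes with standard errors, depleted over wild type, of Syt12 and Apba2 (squares) and of the 4 nearest measured protein-coding genes on each side, in chromosomal order. Lrfn4 was not tested, and the neighbours range from -1.03 for Tarsl2 to 0.71 for Fam189a1, against -3.17 for Apba2 and -2.02 for Syt12.

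The genes with the profiles most like those of Syt12, Apba2 and Snap23 were found over the 10 arrays, after each gene's log2 signals were taken relative to its wild-type mean. The measure was the root mean square difference between profiles, over 13810 other genes. Closest to Syt12 were the phosphatase Ppm1e at 0.386, the sulfate donor transporter Slc35b2 at 0.413 and the tropomyosin Tpm1 at 0.447. Slc35b2 signal went from 116 ± 17.0 to 29.3 ± 7.08 and Tpm1 from 60.9 ± 4.12 to 14.1 ± 1.39 (SD, n = 5). Closest to Apba2 were the hyaluronan synthase Has3 at 0.507, the zinc finger gene Zbtb39 at 0.519 and the aldo-keto reductase Akr1b8 at 0.669. The profiles of Syt12 and Apba2 rest in part on depleted signals under background, above it on 2 and 1 of 5 depleted arrays, whose log2 size moves with the offset. The same holds for Ppm1e and Zbtb39, above background on 0 and 2 of 5 depleted arrays. The brightest other member, Snap23, was most like Nop56, Lactb and Snapc1, at 0.089, 0.100 and 0.103.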

How the data were processed

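The deposited values are intensity values from MAS5, as named in the submitters' processing notes: 1 linear signal per probe set and array from biotin-labelled RNA. MAS5 uses mismatch probes as a local background, so low signals vary widely. The version was not given in the sources used here. Groups came from sample titles, 5 arrays each. Precision is limited by the number of arrays.

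Controls (64 probe sets) were left out. Signals were transformed as log2(signal + 2.47), with the offset at the 25th percentile of the table, so differences at low signal are compressed. Probe sets under the 40th percentile of mean log2 signal, a linear signal of about 5.13, were left out, leaving 27022. The test was limma 3.58.1 (lmFit, eBayes with trend) under R 4.3.3, Benjamini-Hochberg adjusted over all tested probe sets, with calls at an adjusted p under 0.05. The fit was tested on simulated data. A gene was represented by its brightest probe set. Symbols came from the platform annotation, and gene order and promoter windows from RefSeq GRCm38.p6. No array coordinates were used.

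The members and lists were chosen with earlier results of these data known. Named genes were all members, up to 6 called and the 3 brightest genes of each list, the neighbours, the 3 genes most alike and Ctcf. Alternatives were other offsets, filters, scalings and variance models, the replicate block, the mean over probe sets, other background levels and leaving out each array. Same-numbered arrays deviated together little (correlations 0.0024 to 0.051), so the numbers were not taken as pairs.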

Additional observations from a re-analysis of the deposited data

Results flagged for a closer look

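A single array stood apart from the other 4 of its group in 4 of the 44 member groups screened with Dixon's test, which flags about 1 in 20 groups by chance. Syt11 probe set 1456464_x_at read 165 on wild-type replicate 1 against 141 to 144 on the other wild-type arrays. Apba1 probe set 1437940_at read 29.9 on depleted replicate 3 against 17.3 to 20.4. Syt4 probe set 1415844_at read 3.53 on wild-type replicate 5 against 0.133 to 0.446, and Snap25 probe set 1447763_at read 4.40 on wild-type replicate 3 against 0.561 to 1.20, both under background.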

How the results depend on the processing

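Syt12 and Apba2 kept a negative fold change under every alternative that tested them, from -2.30 to -1.05 and from -3.70 to -1.64, with the extremes set by the offset. A filter at the 60th percentile left both out, so that 0 member probe sets were called, because fewer were tested. With the 95th percentile of the controls as background 3 member probe sets in place of 6 were above it on no array. Syt7, Gosr1, Use1, Vti1a, Stx6, Stx7, Stx12, Rims1, Baiap3, Ankrd13d and Tarsl2 kept their direction and call under all alternatives run. The counts of calls in the lists moved more, and the cause was not tested. With median centring 12 genes of the 6 lists were higher, among them 4 regulators, 1 exocyst gene and 2 Apba partners, and over all genes 1374 were higher and 921 lower. Without a filter 11 genes of the lists were lower, 3 of them regulators and 1 an Apba partner, and without the intensity trend 11 were lower, with 3 regulators lower, 0 vesicle SNAREs lower and 1 higher, and 0 Apba partners higher. Quantile normalization gave 1 vesicle SNARE, 2 regulators and 2 Apba partners higher. The stricter filter gave 3 regulators and 2 Apba partners higher. With the mean over probe sets 1 vesicle SNARE, 3 regulators and 1 exocyst gene were higher, 0 exocyst genes were lower and 0 neighbours were higher. The replicate block gave 2 other C2 genes lower, and 1 vesicle SNARE, 2 regulators, 1 exocyst gene and 2 Apba partners higher. With single arrays left out, 10 to 16 genes of the lists were lower, 2 to 5 regulators were lower and 1 to 3 higher, 1 to 3 Apba partners were lower and 1 to 2 higher, 1 to 2 vesicle SNAREs were higher, and 0 to 1 exocyst genes were higher. Signals near background limit Syt4, Snap25 and the depleted levels of Syt12 and Apba2.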
